A study of Homo sapiens with 21 samples.

Results

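The collagens are the secreted and membrane-bound triple-helical proteins of the extracellular matrix. The 40 collagen chain genes described here were chosen by their symbols, as the genes of the collagen family, and are 40 of the 57500 genes in the count tables. RNA was measured in xenografts of HT1376, an established human bladder carcinoma cell line. The cells had been implanted in Matrigel under the skin of the right flank of female CB17 SCID mice, an immunodeficient strain, which were 6 to 8 weeks old. From 11 to 15 days after inoculation, at mean volumes of 139 to 160 mm3, mice received vehicle or 1 of 6 compounds by mouth once a day. The compounds were CPI-0209, Valemetostat, tazemetostat, PF-06821497 and CPI-1205, known as inhibitors of the catalytic subunit EZH2, and MAK683, known to bind the subunit EED. Each compound was given at 75 mg/kg, and tumours were harvested 1 hour after a dose on day 15. Each of the 7 groups had 3 libraries, which makes 21, and all groups shared the cell line and the host strain. SCID mice lack mature T and B lymphocytes but keep other host cells, so the bulk RNA can hold transcripts of mouse tissue. Whether a read was human or mouse was not tested.

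Collagen chains assemble in threes inside the cell, are hydroxylated and secreted, and are then trimmed and cross-linked into fibrils or networks. Fibril-forming collagens such as types I, III and V give connective tissue its tensile strength and come mainly from fibroblasts, while types IV, VII and XVIII belong to the basement membrane zone under epithelia, and FACIT collagens coat the surface of fibrils. PRC2, the complex that the compounds target, places a methyl mark on a lysine of histone H3 and thereby keeps many developmental genes silent. The comparisons below ask how the RNA of each collagen chain differed between each compound and vehicle, and between the compounds.

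Between 9725690 (in CPI-0209 library 3) and 25771778 reads were counted per library, and 38 of the 40 collagen genes had enough counts to be tested among 21958 genes. Levels are given as CPM, library-size-scaled counts with TMM factors, in the order of libraries 1, 2 and 3 of a group. A log2 fold change is followed by its SE, and a change was called at an adjusted p under 0.05 from the edgeR quasi-likelihood test, adjusted over all tested genes (n = 3 per group throughout). The labels do not say that the 3 libraries of a group came from separate animals, so a p-value reflects only the spread among these samples, which may in part be technical. The libraries of each group differed by more than sampling noise (chi-square per degree of freedom of at least 4.89). In these bulk samples, fewer cells of a type and less RNA per cell cannot be told apart. COL20A1 (35 counts in all, in 17 libraries) and COL25A1 (77 counts, in 19 libraries) were too low to test. The other 38 passed a filter on low counts that a gene can pass through the groups where it is high. COL19A1, COL22A1, COL23A1, COL8A2 and COL9A1 had 7 to 14 counts over the 3 vehicle libraries, which limits the precision of their fold changes. COL4A2 (5, 9 and 4 counts in the vehicle libraries) and COL6A2 (4, 7 and 12) were also low there. Genes this low in vehicle had little room to be called lower, and they enter the counts of rises and the medians below.

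Collagen genes moved in both directions with 4 of the 6 compounds. Of the 38 tested collagen genes, 21 rose and 9 fell with CPI-0209 relative to vehicle, where 22.3% of all tested genes were higher and 18.8% lower (41.1% called in either direction). Their median log2 fold change was 1.74, against -0.02 over all tested genes. Valemetostat gave 16 higher and 8 lower (median 1.07), beside 15.0% higher and 12.2% lower of all genes, 27.3% in either direction. With MAK683, 13 were higher and 5 lower (median 0.86), beside 10.4% and 5.17% of all genes, 15.6% in either direction. PF-06821497 had 8 higher and 5 lower (median 0.36), beside 5.96% and 3.59% of all genes, 9.55% in either direction. The PF-06821497 total of 13 fell to 6 without vehicle library 2 and to 7 without vehicle library 3 or PF-06821497 library 3.

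No collagen gene was called with tazemetostat or CPI-1205, where edgeR called 0% of all genes. With tazemetostat, 1 collagen gene had an unadjusted p under 0.05, and DESeq2 and limma-voom each called 0. With CPI-1205, 5 had an unadjusted p under 0.05, DESeq2 called 1 and limma-voom 0. For these counts the shares of all genes are not given here, so they do not show whether collagen genes stood out. The medians were 0.10 and -0.19. The compounds were each compared with the same 3 vehicle libraries, so these comparisons share their controls.

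Of all 77 calls of the 30 members named below, 59 held when each library of the 2 groups was left out in turn (23 of 26 for CPI-0209, 18 of 21 for Valemetostat, 13 of 17 for MAK683 and 5 of 13 for PF-06821497). Calls that did not hold are marked with their gene.

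**Figure D1:**
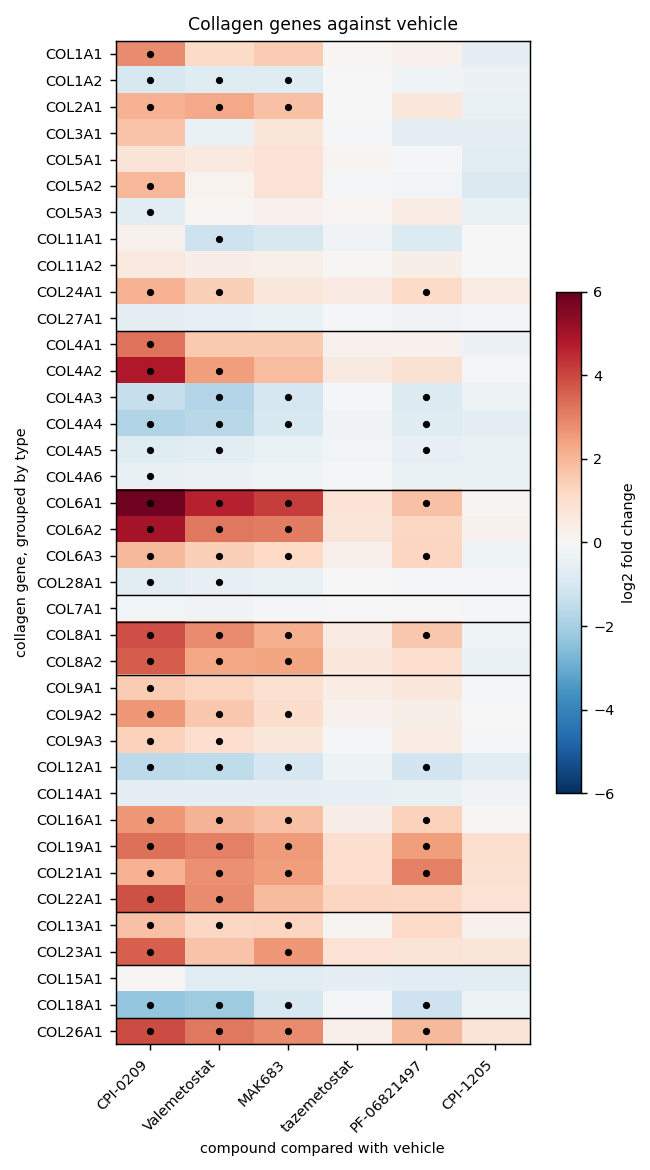
Log2 fold change against vehicle (colour) of the 38 tested collagen genes (rows, grouped by collagen type) with each of the 6 compounds (columns, 3 libraries against 3), where a black dot marks an adjusted p under 0.05. CPI-0209 shows 21 rises and 9 falls, and the columns of tazemetostat and CPI-1205 hold no dot.

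Type VI collagen, which forms beaded filaments around cells, had the largest rises of the family with CPI-0209, in COL6A1 and COL6A2. COL6A1 (chr21:45981737-46005050 on hg38, the build of all coordinates here) encodes its α1 chain and stood at 0.996, 1.51 and 1.72 CPM with vehicle, 47.4, 115 and 79.2 with CPI-0209, 34.3, 15.2 and 54.1 with Valemetostat and 30.7, 24.7 and 21.2 with MAK683. It was at 7.48, 2.41 and 4.61 CPM with PF-06821497, 2.44, 2.42 and 2.50 with tazemetostat and 2.36, 1.44 and 0.985 with CPI-1205. Every CPI-0209, Valemetostat and MAK683 library was above every vehicle library by more than the vehicle libraries differed, and the tazemetostat libraries lay just above vehicle. The log2 fold changes were 5.83 ± 0.52, adjusted p 1.11e-07 with CPI-0209, 4.61 ± 0.50, adjusted p 2.50e-06 with Valemetostat and 4.17 ± 0.50, adjusted p 1.45e-05 with MAK683. With PF-06821497 it rose by 1.76 ± 0.52, adjusted p 0.0392, a call that was lost without vehicle library 1, 2 or 3 or PF-06821497 library 1 or 3 (adjusted p 0.1 to 0.158). That call was also lost with the muscle covariate described below (adjusted p 0.0603), with the replicate number as a block (adjusted p 0.0565) and with limma-voom.

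COL6A2 (chr21:46098097-46132849), the neighbouring gene of the α2 chain, was lower in level and moved the same way. It was at 0.181, 0.294 and 0.559 CPM with vehicle, 5.80, 17.4 and 10.5 with CPI-0209, 3.27, 1.14 and 5.02 with Valemetostat and 4.02, 2.64 and 2.00 with MAK683. The values were 1.3, 0.129 and 1.05 CPM with PF-06821497, 0.719, 0.725 and 0.259 with tazemetostat and 0.636, 0.371 and 0.224 with CPI-1205. All libraries of CPI-0209, Valemetostat and MAK683 were above vehicle, while PF-06821497 overlapped it. Its rises were 5.01 ± 0.66, adjusted p 5.59e-06, 3.17 ± 0.67, adjusted p 0.00146 and 3.05 ± 0.68, adjusted p 0.00372 in that order, and 1.23 ± 0.76 with PF-06821497 was not called. COL6A3 (chr2:237324003-237414375), the longest type VI chain, was at 7.61, 5.08 and 6.24 CPM with vehicle, 22.5, 21.5 and 28.7 with CPI-0209, 15.2, 13.9 and 22.0 with Valemetostat and 13.4, 14.6 and 15.7 with MAK683. Levels of 16.7, 16.6 and 12.8 CPM with PF-06821497, 8.63, 8.37 and 6.34 with tazemetostat and 2.36, 8.46 and 4.92 with CPI-1205 completed the set. It rose with 4 compounds, by 1.94 ± 0.29, adjusted p 1.78e-05 with CPI-0209, 1.43 ± 0.28 with Valemetostat, 1.21 ± 0.29 with MAK683 and 1.29 ± 0.28, adjusted p 0.00572 with PF-06821497, and none of those 12 libraries overlapped vehicle. COL28A1 (chr7:7356203-7535853), which shares von Willebrand factor A domains with type VI, went the other way, at 12.7, 12.2 and 11.7 CPM with vehicle, 8.36, 8.05 and 6.59 with CPI-0209, 8.40, 8.93 and 8.44 with Valemetostat and 9.40, 9.24 and 8.82 with MAK683. With the remaining compounds it was at 8.05, 12.7 and 12.6 CPM with PF-06821497, 11.6, 10.8 and 13.4 with tazemetostat and 8.86, 11.2 and 14.9 with CPI-1205. It fell with CPI-0209 (-0.66 ± 0.18, adjusted p 0.00572) and with Valemetostat (-0.51 ± 0.18, adjusted p 0.0380), the latter lost without vehicle library 1, 2 or 3 or Valemetostat library 1, 2 or 3 (adjusted p 0.0626 to 0.116), with either other filter on low counts and with upper-quartile scaling. The CPI-0209 call was lost with the muscle covariate once CPI-0209 library 3 was left out (-0.48).

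The chains of type VI did not rise by the same factor. Per exon length, the COL6A1 level was 0.481, 1.09 and 1.01 times that of COL6A3 in the vehicle libraries and 7.75, 19.7 and 10.2 times with CPI-0209. The ratio was 8.30, 4.03 and 9.03 with Valemetostat, 8.44, 6.23 and 4.96 with MAK683, 0.532 to 1.65 with PF-06821497 and 1.04 to 1.45 with tazemetostat. With CPI-1205 it was 3.67, 0.627 and 0.735, the first in a library where COL6A3 was low (2.36 CPM). The ratio of COL6A1 to COL6A2 was 3.11 to 5.54 in vehicle, 6.68 to 8.24 with CPI-0209, 10.6 to 13.5 with Valemetostat and 7.69 to 10.7 with MAK683. It was 4.41 to 18.8 with PF-06821497, 3.36 to 9.74 with tazemetostat and 3.74 to 4.43 with CPI-1205. These ratios rest on only 4, 7 and 12 counts of COL6A2 in the vehicle libraries and on 3 in PF-06821497 library 2. The ratio of COL6A1 to COL6A3 did not overlap vehicle in the tumours of CPI-0209, Valemetostat and MAK683. Some libraries of the other compounds were also above vehicle. These were CPI-1205 library 1, tazemetostat library 3 (1.45) and PF-06821497 libraries 1 (1.65) and 3 (1.32).

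The sequence just upstream of COL6A2 is shown because it is one of the most strongly raised members for which a RefSeq window was at hand. It is the stretch before the first annotated exon, at chr21:46097862-46098096 on the plus strand of GRCh38.p14, 235 bases with 25 CpG dinucleotides, printed in capitals, and 4 matches to GGGCGG, the GC box letters, on either strand, each of which holds 1 of the CpG.
COL6A2: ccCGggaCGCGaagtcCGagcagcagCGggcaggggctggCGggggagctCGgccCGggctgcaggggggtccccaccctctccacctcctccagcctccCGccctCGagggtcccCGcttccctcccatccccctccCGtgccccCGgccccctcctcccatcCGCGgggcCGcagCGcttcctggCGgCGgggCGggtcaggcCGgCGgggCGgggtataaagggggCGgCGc

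Type VIII collagen, a short-chain collagen of vascular and corneal basement layers, rose in both of its chains. COL8A1 (chr3:99638475-99799226) stood at 1.86, 1.05 and 2.38 CPM with vehicle, 24.9, 31.4 and 19.7 with CPI-0209, 11.0, 6.07 and 21.0 with Valemetostat and 8.78, 6.31 and 7.66 with MAK683. Its other values were 7.43, 4.17 and 4.61 CPM with PF-06821497, 2.16, 1.89 and 3.24 with tazemetostat and 0.545, 1.03 and 2.86 with CPI-1205. The libraries of CPI-0209, Valemetostat, MAK683 and PF-06821497 were all above vehicle, with rises of 3.85 ± 0.48, adjusted p 3.70e-06, 2.85 ± 0.47, 2.11 ± 0.48 and 1.62 ± 0.48, adjusted p 0.0379. The PF-06821497 call was lost without vehicle library 1, 2 or 3 or PF-06821497 library 1 or 3 (adjusted p 0.0718 to 0.166) and with limma-voom. COL8A2 (chr1:36095236-36125220) was at 0.0905, 0.294 and 0.186 CPM with vehicle, 1.39, 2.7 and 3.44 with CPI-0209, 1.12, 0.395 and 1.49 with Valemetostat and 1.24, 0.636 and 1.17 with MAK683. It stood at 0.467, 0.301 and 0.439 CPM with PF-06821497, 0.400, 0.322 and 0.173 with tazemetostat and 0.0908, 0.124 and 0.224 with CPI-1205. It rose by 3.64 ± 0.51, adjusted p 7.49e-06 with CPI-0209, 2.34 ± 0.53 with Valemetostat and 2.35 ± 0.54 with MAK683, again with no overlap. The window upstream of COL8A2, at chr1:36125223-36125472 on the minus strand of GRCh38.p14 and 250 bases long, is shown because it holds 35 CpG (capitals) and 7 GGGCGG matches, more than the other sequences printed here.
COL8A2: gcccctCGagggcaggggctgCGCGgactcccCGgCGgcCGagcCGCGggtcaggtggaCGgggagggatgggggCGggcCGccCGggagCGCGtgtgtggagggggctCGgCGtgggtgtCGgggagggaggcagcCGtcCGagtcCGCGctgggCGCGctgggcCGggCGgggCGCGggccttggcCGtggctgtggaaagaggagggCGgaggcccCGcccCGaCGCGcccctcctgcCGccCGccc

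**Figure D2:**
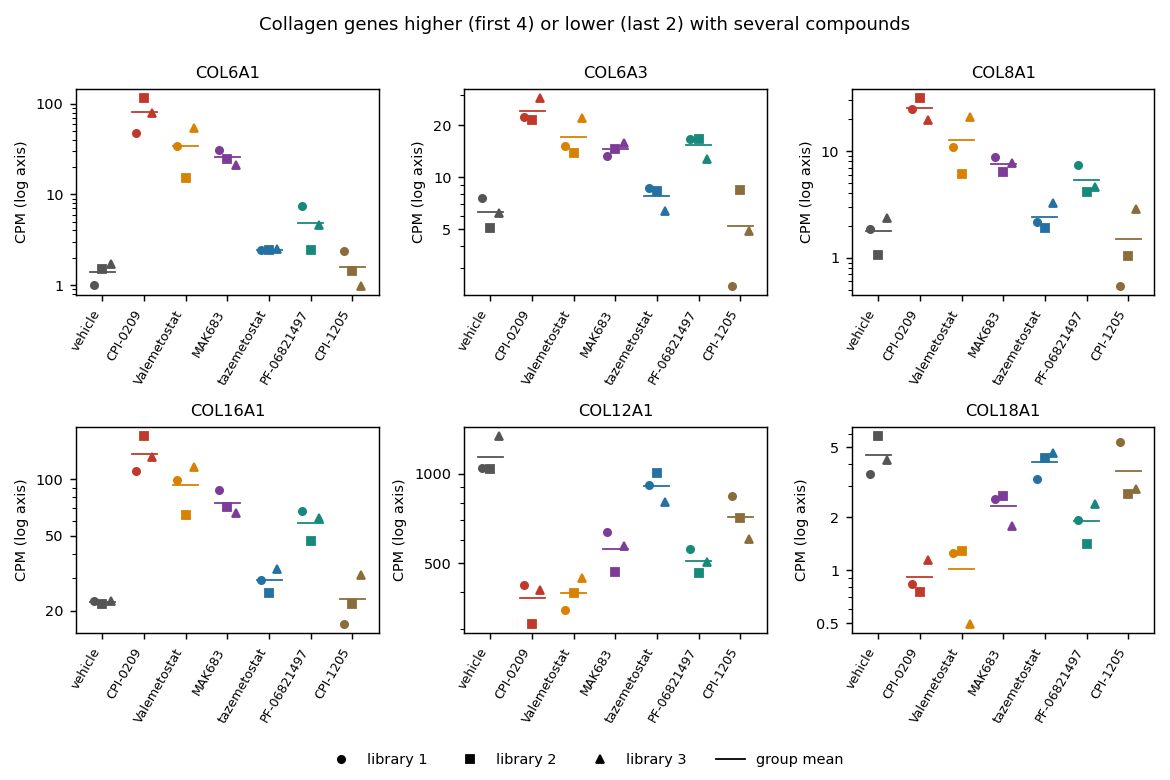
CPM per library (log axis) of COL6A1, COL6A3, COL8A1, COL16A1, COL12A1 and COL18A1 in the 7 groups, where each point is 1 library and each bar the group mean. COL6A1 rises from 0.996 to 1.72 CPM in vehicle to 47.4 to 115 with CPI-0209, and COL12A1 falls from at least 1033 to at most 424.5 CPM.

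FACIT collagens, which lie on fibril surfaces and link them to other matrix, split between rises and 1 large fall. COL12A1 (chr6:75084326-75206051), the chain of type XII, was among the most abundant collagens of these tumours and stood at 1045, 1033 and 1336 CPM with vehicle, 424, 314 and 407 with CPI-0209, 348, 397 and 446 with Valemetostat and 637, 469 and 574 with MAK683. It was at 559.8, 464 and 504 CPM with PF-06821497, 918, 1009 and 805 with tazemetostat and 840.5, 709 and 604 with CPI-1205. Every library of every compound lay below the lowest vehicle library. It fell, with log2 fold changes of -1.58 ± 0.16, adjusted p 1.38e-07 with CPI-0209, -1.52 ± 0.16 with Valemetostat, -1.02 ± 0.16 with MAK683 and -1.16 ± 0.16, adjusted p 7.78e-05 with PF-06821497. With CPI-1205 the difference was -0.66 ± 0.16, adjusted p 0.279, not called by edgeR but called by DESeq2 (adjusted p 0.0187). The difference also passed with no filter on low counts, a setting that gave several named genes much smaller adjusted p at similar fold changes. With tazemetostat it was -0.32 ± 0.16, with a 95% interval of -0.66 to 0.02.

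The sequence upstream of COL12A1 is shown as that of the abundant chain with the largest fall. It spans chr6:75206054-75206303 on the minus strand of GRCh38.p14, 250 bases with 21 CpG in capitals and 1 GGGCGG match.
COL12A1: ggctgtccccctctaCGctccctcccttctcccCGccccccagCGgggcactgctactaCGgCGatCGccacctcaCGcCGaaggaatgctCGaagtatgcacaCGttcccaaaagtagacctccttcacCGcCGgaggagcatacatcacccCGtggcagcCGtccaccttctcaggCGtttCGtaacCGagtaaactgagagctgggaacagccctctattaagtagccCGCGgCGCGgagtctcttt

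COL16A1 (chr1:31652247-31704319), a FACIT-like collagen, stood at 22.6, 21.9 and 22.5 CPM with vehicle, 110.2, 169 and 130.5 with CPI-0209, 98.6, 64.8 and 116 with Valemetostat and 87.5, 71.0 and 65.8 with MAK683. The other compounds gave 67.7, 46.8 and 61.9 CPM with PF-06821497, 29.1, 25.0 and 33.2 with tazemetostat and 17.1, 21.7 and 30.9 with CPI-1205. The rises were 2.61 ± 0.23, adjusted p 2.27e-08 with CPI-0209, 2.06 ± 0.22, adjusted p 7.65e-07 with Valemetostat, 1.74 ± 0.22, adjusted p 1.08e-05 with MAK683 and 1.39 ± 0.22, adjusted p 0.000317 with PF-06821497, and no library of these compounds overlapped vehicle. COL9A2 (chr1:40300487-40317816), a chain of cartilage type IX, was at 2.90, 3.82 and 2.65 CPM with vehicle, 12.5, 26.1 and 17.6 with CPI-0209, 10.7, 5.23 and 13.0 with Valemetostat and 6.86, 7.09 and 5.66 with MAK683. It had 3.63, 3.74 and 4.65 CPM with PF-06821497, 3.72, 3.30 and 4.10 with tazemetostat and 2.95, 2.89 and 3.71 with CPI-1205. It rose with CPI-0209 (2.58 ± 0.28, adjusted p 3.57e-07), Valemetostat (1.62 ± 0.28) and MAK683 (1.06 ± 0.28, adjusted p 0.0122), the last lost without vehicle library 1 or 3 (adjusted p 0.0512 to 0.0636).

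COL21A1 (chr6:56056590-56394094), a FACIT of vessel walls, had another order of compounds. It stood at 0.498, 0.336 and 0.419 CPM with vehicle, 2.40, 1.32 and 1.53 with CPI-0209, 2.15, 3.75 and 2.43 with Valemetostat and 2.60, 1.91 and 2.83 with MAK683. The values 3.12, 3.83 and 3.25 CPM with PF-06821497, 1.28, 0.604 and 0.647 with tazemetostat and 0.499, 1.20 and 0.626 with CPI-1205 show the highest levels with PF-06821497. Every library of the 6 compounds was above vehicle, except that CPI-1205 library 1 was in effect level with vehicle library 1 (11 counts each). The rises were 3.01 ± 0.37, adjusted p 2.21e-05 with PF-06821497, 2.72 ± 0.37 with Valemetostat, 2.53 ± 0.38 with MAK683 and 2.07 ± 0.39, adjusted p 0.000225 with CPI-0209. CPI-0209 was below PF-06821497, with a log2 difference of -0.94 ± 0.32, adjusted p 0.0387. With tazemetostat it stood 1.01 ± 0.40 from vehicle (95% interval 0.15 to 1.87, adjusted p 1.00), the 1 collagen gene with an unadjusted p under 0.05 there.

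COL19A1 (chr6:69866571-70209976) was near the detection limit in vehicle, with 7 counts over 3 libraries, and stood at 0.136, 0.0420 and 0.140 CPM with vehicle, 1.00, 1.03 and 1.24 with CPI-0209, 0.373, 0.987 and 1.32 with Valemetostat and 0.680, 0.783 and 0.444 with MAK683. It was at 0.831, 0.473 and 0.571 CPM with PF-06821497, 0.280, 0.322 and 0.0432 with tazemetostat and 0.409, 0.0413 and 0.179 with CPI-1205. It rose with CPI-0209 (3.30 ± 0.65, adjusted p 0.000349), Valemetostat (3.01 ± 0.65), MAK683 (2.55 ± 0.68, adjusted p 0.0123) and PF-06821497 (2.50 ± 0.67, adjusted p 0.0203). The MAK683 call was lost without vehicle library 2 (adjusted p 0.0702) and that of PF-06821497 without vehicle library 2 or 3 or PF-06821497 library 1 (adjusted p 0.0569 to 0.101).

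Type IV collagen forms the sheet of basement membranes from 6 chains, whose genes lie in 3 pairs, each transcribed outward from a shared start region. The pairs went opposite ways: COL4A1 and COL4A2, found in all basement membranes, were higher with CPI-0209, and the 4 genes of the other chains, found in specialised epithelial membranes, were lower. Parts of the sequences between the paired starts are shown on the plus strand of GRCh38.p14, without annotated exon, CpG in capitals, since 1 such region serves 2 genes that moved together. The printed parts of the COL4A3 and COL4A4 pair and the COL4A5 and COL4A6 pair begin at the edge of the COL4A3 or COL4A5 RefSeq window. CpG between that edge and the other start are not counted. The starts lay 127 bases apart for COL4A1 and COL4A2 (printed chr13:110307158-110307266, 109 bases with 15 CpG, 1 GGGCGG and 1 CCAAT match). They lay 419 apart for COL4A3 and COL4A4 (chr2:227164374-227164564, 191 bases with 8 CpG and 1 GGGCGG match) and 380 apart for COL4A5 and COL4A6 (chrX:108439588-108439837, 250 bases with 8 CpG and 2 CCAAT matches).
COL4A1 and COL4A2: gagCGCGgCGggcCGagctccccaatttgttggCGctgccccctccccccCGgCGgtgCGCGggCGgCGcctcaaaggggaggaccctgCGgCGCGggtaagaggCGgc
COL4A3 and COL4A4: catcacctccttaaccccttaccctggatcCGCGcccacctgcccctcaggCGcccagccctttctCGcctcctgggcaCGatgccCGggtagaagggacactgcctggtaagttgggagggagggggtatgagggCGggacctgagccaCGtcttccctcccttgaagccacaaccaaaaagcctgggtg
COL4A5 and COL4A6: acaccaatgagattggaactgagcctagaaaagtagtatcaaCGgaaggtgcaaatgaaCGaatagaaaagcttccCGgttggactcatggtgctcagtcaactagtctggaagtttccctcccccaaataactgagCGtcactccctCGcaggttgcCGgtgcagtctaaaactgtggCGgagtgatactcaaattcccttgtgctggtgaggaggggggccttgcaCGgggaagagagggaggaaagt

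COL4A1 (chr13:110148963-110307149) was low in vehicle and stood at 1.40, 1.01 and 1.63 CPM with vehicle, 6.30, 11.9 and 21.5 with CPI-0209, 3.69, 2.37 and 5.96 with Valemetostat and 7.67, 1.42 and 3.27 with MAK683. It was at 2.86, 0.344 and 1.67 CPM with PF-06821497, 1.84, 2.21 and 0.820 with tazemetostat and 1.73, 1.07 and 0.403 with CPI-1205. All CPI-0209 and Valemetostat libraries were above vehicle, and MAK683 overlapped it. It rose by 3.28 ± 0.67, adjusted p 0.000775 with CPI-0209, and the differences of 1.57 ± 0.68, adjusted p 0.0969 with Valemetostat and 1.59 ± 0.68, adjusted p 0.133 with MAK683 were not called. COL4A2 (chr13:110305812-110513027) stood at 0.226, 0.378 and 0.186 CPM with vehicle, 2.51, 9.88 and 10.3 with CPI-0209, 0.793, 0.888 and 2.98 with Valemetostat and 1.42, 0.783 and 0.721 with MAK683. With the rest it was at 1.04, 0.172 and 0.351 CPM with PF-06821497, 0.440, 0.523 and 0.216 with tazemetostat and 0.409, 0.330 and 0 with CPI-1205, the 0 of CPI-1205 library 3 being a library without a count of this gene. It rose by 4.79 ± 0.72, adjusted p 2.28e-05 with CPI-0209, behind only COL6A1 and COL6A2 in the family, and by 2.50 ± 0.76, adjusted p 0.0182 with Valemetostat. These fold changes rest on 5, 9 and 4 counts in the vehicle libraries. The Valemetostat call was lost without vehicle library 1 or 3 or Valemetostat library 3 (adjusted p 0.0638 to 0.146) and with limma-voom, and the value was 1.66 without Valemetostat library 3. Neither gene was called with PF-06821497, tazemetostat or CPI-1205.

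COL4A3 (chr2:227164565-227314792) and COL4A4 (chr2:227002711-227164113), chains of the glomerular and other specialised membranes, fell with 4 compounds. COL4A3 stood at 6.61, 5.92 and 8.06 CPM with vehicle, 3.18, 1.38 and 3.63 with CPI-0209, 1.68, 2.32 and 1.99 with Valemetostat and 3.15, 3.03 and 3.94 with MAK683. It was at 3.58, 4.64 and 3.51 CPM with PF-06821497, 6.55, 7.61 and 4.88 with tazemetostat and 4.77, 5.69 and 6.00 with CPI-1205. Its falls were -1.36 ± 0.26, adjusted p 0.000277 with CPI-0209, -1.78 ± 0.26, adjusted p 2.63e-05 with Valemetostat, -1.02 ± 0.25, adjusted p 0.00686 with MAK683 and -0.81 ± 0.25, adjusted p 0.0403 with PF-06821497. The last was lost without vehicle library 1, 2 or 3 or PF-06821497 library 1 or 3 (adjusted p 0.0549 to 0.196), with upper-quartile scaling and with the replicate number as a block (adjusted p 0.0603). COL4A4 stood at 9.55, 8.48 and 9.55 CPM with vehicle, 2.62, 2.7 and 2.48 with CPI-0209, 2.38, 3.31 and 2.98 with Valemetostat and 4.88, 3.96 and 5.22 with MAK683. The remaining levels were 6.08, 6.02 and 4.74 CPM with PF-06821497, 8.11, 8.78 and 6.69 with tazemetostat and 5.90, 5.74 and 7.16 with CPI-1205. All libraries of CPI-0209, Valemetostat, MAK683, PF-06821497 and CPI-1205 were below vehicle. It fell, with log2 fold changes of -1.81 ± 0.18, adjusted p 9.22e-08, -1.67 ± 0.17, adjusted p 4.15e-07, -0.97 ± 0.17, adjusted p 0.000270 and -0.71 ± 0.16, adjusted p 0.00738 with the first 4, the PF-06821497 call being lost without PF-06821497 library 3 (adjusted p 0.0517), and stood at -0.55 ± 0.16 with CPI-1205 (95% interval -0.89 to -0.21, adjusted p 0.279). The per-length ratio of COL4A3 to COL4A4 was 0.750 to 0.915 in vehicle, 0.723 to 0.766 with Valemetostat and 1.31, 0.554 and 1.58 with CPI-0209, the last on both sides of the vehicle range.

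COL4A5 (chrX:108439844-108697545) and COL4A6 (chrX:108155607-108439497), the X-linked pair, were the abundant type IV genes in every group. COL4A5 stood at 195, 193 and 228 CPM with vehicle, 135, 99.5 and 137 with CPI-0209, 109, 134 and 154 with Valemetostat and 178, 119.5 and 165 with MAK683. It was at 162, 138 and 137 CPM with PF-06821497, 182, 204 and 165 with tazemetostat and 146, 172 and 155 with CPI-1205. It fell, with log2 fold changes of -0.73 ± 0.16, adjusted p 0.000719 with CPI-0209, -0.64 ± 0.16, adjusted p 0.00399 with Valemetostat and -0.50 ± 0.16, adjusted p 0.0462 with PF-06821497, the last lost without vehicle library 1, 2 or 3 or PF-06821497 library 2 or 3 (adjusted p 0.0755 to 0.21), with upper-quartile scaling and with the replicate block (adjusted p 0.0621). With MAK683 it was -0.42 ± 0.16, adjusted p 0.0759, which passed without MAK683 library 1 (adjusted p 0.048) and with the muscle covariate (adjusted p 0.00819). COL4A6 stood at 175, 159.5 and 189 CPM with vehicle, 133, 126 and 129 with CPI-0209, 128, 138 and 149 with Valemetostat and 158, 132 and 151 with MAK683. Its levels were 147, 103 and 143 CPM with PF-06821497, 153, 181 and 159.7 with tazemetostat and 136, 150.3 and 112 with CPI-1205. It fell with CPI-0209 (-0.43 ± 0.13, adjusted p 0.0133), a call lost without vehicle library 3 (adjusted p 0.08) and with upper-quartile scaling (adjusted p 0.0659), and was -0.41 ± 0.13, adjusted p 0.0558 with PF-06821497, which passed without PF-06821497 library 1 (adjusted p 0.0405). Every library of CPI-0209, Valemetostat, MAK683, PF-06821497 and CPI-1205 was below vehicle for both genes.

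**Figure D3:**
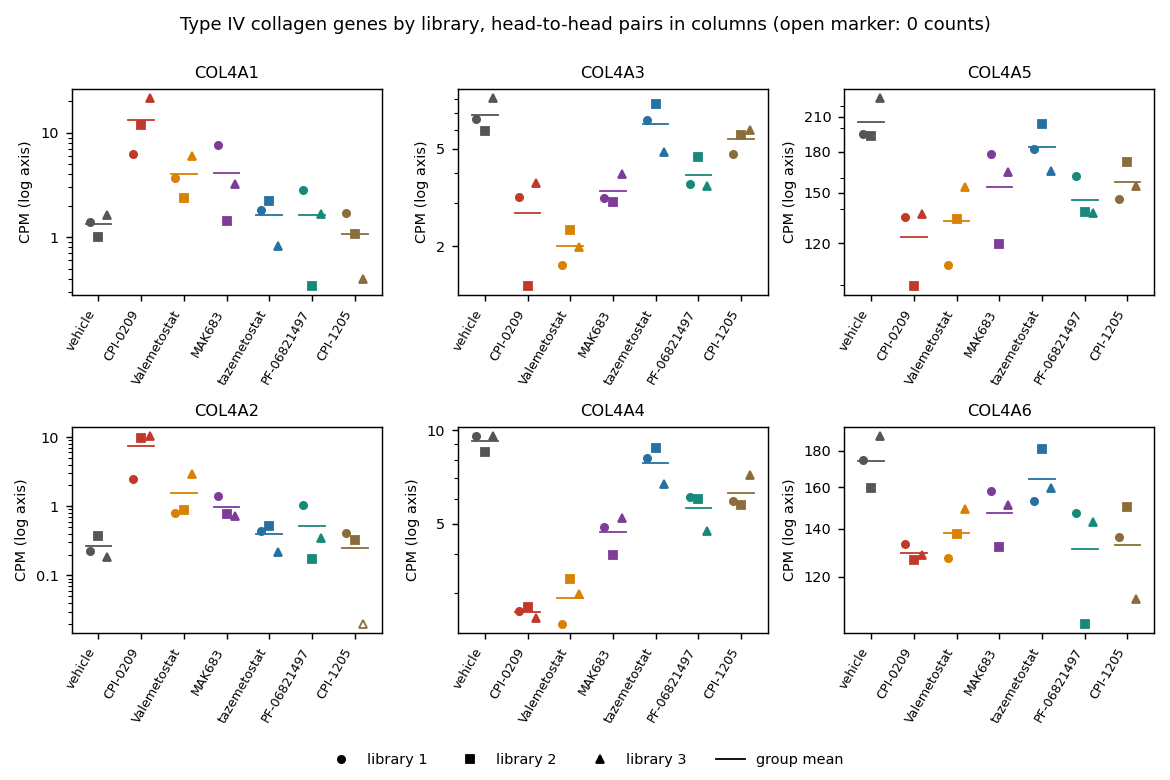
CPM per library (log axis) of the 6 type IV collagen genes in the 7 groups, where each point is 1 library, each bar the group mean and the open marker is CPI-1205 library 3, in which COL4A2 had 0 counts. COL4A1 and COL4A2 are highest with CPI-0209 (6.30 to 21.5 and 2.51 to 10.3 CPM), and COL4A4 is lowest with CPI-0209 and Valemetostat (2.38 to 3.31 CPM against 8.48 to 9.55 in vehicle).

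Among the fibrillar collagens, the 2 chains of type I, the main collagen of bone and scar, parted. COL1A1 (chr17:50183289-50201632) stood at 228, 167 and 369.5 CPM with vehicle, 983, 1436 and 3057 with CPI-0209, 613, 348 and 733 with Valemetostat and 1292, 324 and 549.6 with MAK683. It was at 487, 110.3 and 328 CPM with PF-06821497, 188, 382 and 249 with tazemetostat and 221, 192 and 108 with CPI-1205. All CPI-0209 libraries were above vehicle, with a wide spread led by library 3, and the other compounds overlapped vehicle. It rose by 2.84 ± 0.63, adjusted p 0.00180 with CPI-0209, by 2.25 (adjusted p 0.0105) without CPI-0209 library 3 and by 1.85 (adjusted p 0.00520) with the muscle covariate. The differences with Valemetostat (1.15 ± 0.59, adjusted p 0.170) and MAK683 (1.50 ± 0.60, adjusted p 0.109) were not called, and MAK683 passed with the muscle covariate (1.33, adjusted p 0.0329).

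COL1A2 (chr7:94394561-94431232), the partner chain, stood at 1207, 825 and 1256 CPM with vehicle, 507, 474 and 724 with CPI-0209, 755, 745 and 494 with Valemetostat and 643, 688 and 639.5 with MAK683. It was at 884, 902 and 1055 CPM with PF-06821497, 1120, 1005 and 1106 with tazemetostat and 749, 950.2 and 880.0 with CPI-1205. Libraries of CPI-0209, Valemetostat and MAK683 were all below vehicle. It fell, with log2 fold changes of -0.95 ± 0.18, adjusted p 0.000237, -0.72 ± 0.18, adjusted p 0.00438 and -0.74 ± 0.18, adjusted p 0.00623 with these compounds. Per exon length, COL1A1 was at 0.214, 0.230 and 0.334 times COL1A2 in vehicle, and at 2.20, 3.44 and 4.80 times with CPI-0209. The ratio was 0.922, 0.531 and 1.69 with Valemetostat, 2.28, 0.535 and 0.977 with MAK683, 0.627, 0.139 and 0.353 with PF-06821497, and between 0.139 and 0.432 with tazemetostat and CPI-1205. The chain order of type I was thus reversed in all 3 CPI-0209 libraries and in 1 library each of Valemetostat and MAK683.

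COL3A1 (chr2:188974320-189012746), the chain of reticular fibres, and COL5A1 (chr9:134641774-134844843) and COL5A2 (chr2:189031896-189179879), chains of the type V collagen that starts fibrils, had higher group means with CPI-0209. COL3A1 stood at 56.3, 52.0 and 89.7 CPM with vehicle, 96.7, 110.4 and 442 with CPI-0209, 44.0, 37.7 and 67.6 with Valemetostat and 231, 37.7 and 59.0 with MAK683. It was at 67.0, 19.3 and 45.5 CPM with PF-06821497, 48.1, 79.3 and 52.9 with tazemetostat and 62.9, 48.7 and 23.9 with CPI-1205. The value of 1.71 ± 0.71, adjusted p 0.0658 with CPI-0209 was not called. It was 0.65 (adjusted p 0.471) without CPI-0209 library 3, 2.10 (adjusted p 0.0365) without library 1 and 0.37 with the muscle covariate, and it passed with DESeq2 (adjusted p 0.0341). COL5A2 stood at 6.84, 6.29 and 10.3 CPM with vehicle, 17.1, 22.2 and 53.2 with CPI-0209, 10.1, 5.23 and 12.2 with Valemetostat and 26.6, 5.97 and 10.4 with MAK683. It was at 10.8, 2.67 and 7.51 CPM with PF-06821497, 5.19, 11.6 and 4.83 with tazemetostat and 4.72, 4.83 and 3.31 with CPI-1205. It rose by 1.97 ± 0.58, adjusted p 0.0124 with CPI-0209, a call lost without vehicle library 2 (1.81, adjusted p 0.0538), without CPI-0209 library 3 (1.33, adjusted p 0.0803) and with the muscle covariate (0.97, adjusted p 0.121). COL5A1 stood at 68.9, 35.2 and 93.1 CPM with vehicle, 95.9, 131 and 109 with CPI-0209, 127, 77.9 and 87.6 with Valemetostat and 157, 119 and 81.9 with MAK683. The rest had 90.2, 36.4 and 61.6 CPM with PF-06821497, 70.9, 89.8 and 62.1 with tazemetostat and 42.0, 30.7 and 50.6 with CPI-1205. Neither 0.77 ± 0.34, adjusted p 0.0812 with CPI-0209 nor 0.86 ± 0.34, adjusted p 0.104 with MAK683 was called, and both passed without vehicle library 3 (1.13, adjusted p 0.0257, and 1.20, adjusted p 0.0482).

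COL5A3 (chr19:9959561-10010471), the third type V chain, was at 28.9, 27.1 and 37.1 CPM with vehicle, 20.0, 21.4 and 19.2 with CPI-0209, 44.5, 28.2 and 27.1 with Valemetostat and 31.2, 37.9 and 41.6 with MAK683. It stood at 50.8, 28.3 and 46.2 CPM with PF-06821497, 38.2, 26.9 and 34.5 with tazemetostat and 15.4, 32.0 and 23.9 with CPI-1205. Its fall with CPI-0209 (-0.62 ± 0.25, adjusted p 0.0498) lay at the threshold and was lost without vehicle library 1 or 3 or CPI-0209 library 1, 2 or 3 (adjusted p 0.0612 to 0.224) and with a filter of 1 CPM in 3 libraries, RLE or upper-quartile scaling, DESeq2, limma-voom, the replicate block and the muscle covariate. COL27A1 (chr9:114155560-114312511), a minor fibrillar chain, stood at 54.9, 37.6 and 57.8 CPM with vehicle, 35.8, 34.8 and 34.3 with CPI-0209, 35.2, 36.7 and 36.6 with Valemetostat and 45.9, 35.6 and 32.9 with MAK683. It was at 38.0, 48.0 and 46.1 CPM with PF-06821497, 46.2, 50.1 and 43.7 with tazemetostat and 30.0, 32.5 and 70.5 with CPI-1205. The difference of -0.52 ± 0.23, adjusted p 0.0785 with CPI-0209 was not called, and it passed without vehicle library 2 (adjusted p 0.0274).

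The cartilage collagen gene COL2A1 (chr12:47972965-48004486) and the fibrillar gene COL24A1 (chr1:85729233-86156943) were low everywhere and rose. COL2A1 stood at 0.679, 0.462 and 0.373 CPM with vehicle, 1.50, 2.59 and 2.48 with CPI-0209, 2.38, 2.27 and 2.65 with Valemetostat and 1.48, 2.30 and 1.44 with MAK683. It was at 0.675, 0.473 and 1.32 CPM with PF-06821497, 0.360, 0.604 and 0.561 with tazemetostat and 0.636, 0.247 and 0.269 with CPI-1205. It rose by 2.09 ± 0.39, adjusted p 0.000192, 2.25 ± 0.38, adjusted p 0.000121 and 1.78 ± 0.39, adjusted p 0.00262 with CPI-0209, Valemetostat and MAK683, whose libraries were all above vehicle. COL24A1 stood at 0.951, 0.629 and 0.373 CPM with vehicle, 2.62, 2.24 and 3.73 with CPI-0209, 1.31, 1.73 and 2.37 with Valemetostat and 1.3, 0.880 and 0.999 with MAK683. Others had 1.45, 1.55 and 1.32 CPM with PF-06821497, 0.799, 1.13 and 0.820 with tazemetostat and 0.817, 0.701 and 1.16 with CPI-1205. It rose with CPI-0209 (2.10 ± 0.32, adjusted p 2.42e-05), Valemetostat (1.45 ± 0.32) and PF-06821497 (1.14 ± 0.33, adjusted p 0.0309), the last lost without vehicle library 2 or 3 or PF-06821497 library 1, 2 or 3 (adjusted p 0.0553 to 0.175) and in a fit of the 2 groups alone.

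COL7A1 (chr3:48564073-48595267), the chain of the anchoring fibrils that tie epithelial basement membranes to the tissue below, was abundant and was called with no compound. It stood at 1120, 1053 and 1130 CPM with vehicle, 851, 1216 and 906 with CPI-0209, 1040, 853 and 984 with Valemetostat and 998, 1109 and 951 with MAK683. It was at 918, 1181 and 1225 CPM with PF-06821497, 992, 1076 and 1201 with tazemetostat and 453, 1258 and 1447 with CPI-1205. CPI-1205 library 1 was the lowest of all and the other 2 libraries of that group the highest. The difference was -0.15 ± 0.26, adjusted p 0.671 with CPI-0209 and -0.06 ± 0.26 with CPI-1205 (95% interval -0.62 to 0.50). Titles mark CPI-1205 libraries 2 and 3 as resubmitted. With library 1 as the only CPI-1205 library, the COL7A1 difference from vehicle was -1.24. That value comes from 1 library, so its spread within the group cannot be measured.

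COL18A1 (chr21:45405137-45513720), the multiplexin whose fragment is endostatin, stood at 3.53, 5.79 and 4.24 CPM with vehicle, 0.836, 0.747 and 1.15 with CPI-0209, 1.26, 1.28 and 0.496 with Valemetostat and 2.54, 2.64 and 1.78 with MAK683. It was at 1.92, 1.42 and 2.37 CPM with PF-06821497, 3.32, 4.35 and 4.66 with tazemetostat and 5.36, 2.72 and 2.91 with CPI-1205. All libraries of the first 3 compounds and of PF-06821497 were below vehicle. It fell, with log2 fold changes of -2.34 ± 0.35, adjusted p 1.85e-05 with CPI-0209, -2.14 ± 0.33, adjusted p 4.84e-05 with Valemetostat, -0.96 ± 0.31, adjusted p 0.0355 with MAK683 and -1.25 ± 0.31, adjusted p 0.0119 with PF-06821497. The MAK683 call was lost without vehicle library 2 or 3 or MAK683 library 1, 2 or 3 (adjusted p 0.0546 to 0.18) and with upper-quartile scaling, and that of PF-06821497 without vehicle library 2 or PF-06821497 library 2 (adjusted p 0.052 to 0.0767). Its exons share 1401 bases (16.4% of its length) with SLC19A1 on the opposite strand, and the strand setting of the counting is not given in the sources used here, so its counts are uncertain.

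COL26A1 (chr7:101362820-101559024), a small secreted collagen of gonads and embryonic tissue, and COL13A1 (chr10:69801931-69964275), a transmembrane collagen of cell junctions, rose from low levels. COL26A1 stood at 0.362, 0.462 and 0.373 CPM with vehicle, 3.85, 8.85 and 5.83 with CPI-0209, 3.27, 2.76 and 4.91 with Valemetostat and 2.97, 3.08 and 2.61 with MAK683. It was at 1.82, 1.16 and 1.67 CPM with PF-06821497, 0.559, 0.403 and 0.518 with tazemetostat and 0.409, 1.20 and 0.403 with CPI-1205. The 4 compounds with calls had no library overlapping vehicle, and the rises were 3.93 ± 0.39, adjusted p 1.03e-07 with CPI-0209, 3.16 ± 0.39, adjusted p 3.71e-06 with Valemetostat, 2.83 ± 0.40, adjusted p 3.22e-05 with MAK683 and 1.93 ± 0.41, adjusted p 0.00429 with PF-06821497. COL13A1 stood at 0.317, 0.629 and 0.512 CPM with vehicle, 1.73, 1.84 and 1.43 with CPI-0209, 0.980, 1.19 and 1.32 with Valemetostat and 1.18, 1.42 and 1.05 with MAK683. Others had 1.56, 0.731 and 1.05 CPM with PF-06821497, 0.759, 0.483 and 0.388 with tazemetostat and 0.182, 0.908 and 0.671 with CPI-1205. It rose with CPI-0209 (1.77 ± 0.41, adjusted p 0.00142), Valemetostat (1.24 ± 0.41, adjusted p 0.0282) and MAK683 (1.31 ± 0.41, adjusted p 0.0330), the last 2 lost without vehicle library 1 or 3 or Valemetostat library 2 or 3 (adjusted p 0.0621 to 0.119) and without vehicle library 1 or 3 or MAK683 library 1 or 2 (adjusted p 0.0669 to 0.144). The sequence upstream of COL26A1 is shown for contrast with COL6A2 and COL8A2, since it spans 195 bases at chr7:101362625-101362819 on the plus strand of GRCh38.p14 with 16 CpG (capitals) and no GGGCGG or CCAAT match.
COL26A1: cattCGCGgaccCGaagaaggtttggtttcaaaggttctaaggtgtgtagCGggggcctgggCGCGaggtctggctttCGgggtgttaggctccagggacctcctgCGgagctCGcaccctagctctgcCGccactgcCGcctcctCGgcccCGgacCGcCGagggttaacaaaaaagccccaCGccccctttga

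The other 8 tested members had group means of 0.099 to 3.46 CPM. COL22A1 and COL23A1 were the strongest of them with CPI-0209, at 3.83 ± 0.67, adjusted p 9.90e-05 and 3.59 ± 0.61, adjusted p 8.41e-05. COL22A1, a collagen of tissue junctions, stood at 0.226, 0.126 and 0 CPM with vehicle and at 1.06, 1.78 and 2.58 with CPI-0209, and it also rose with Valemetostat (2.84 ± 0.69). COL23A1, a transmembrane collagen, was at 0.0453, 0.252 and 0 and 0.725, 1.15 and 2.20 CPM and also rose with MAK683 (2.61 ± 0.65). The type IX genes COL9A1 (1.52 ± 0.52) and COL9A3 (1.40 ± 0.34) rose with CPI-0209, and COL9A3 with Valemetostat (1.00 ± 0.34). COL11A1, a cartilage fibrillar chain, was lower with Valemetostat alone among the calls (-1.24 ± 0.35, adjusted p 0.0107). COL11A2, COL14A1 and COL15A1 were called with no compound.

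Levels of different genes can be ordered per exon length, as RPKM, which divides the CPM by the exon length in kilobases. In vehicle the leading collagens were COL7A1 at 99.1 ± 3.76 RPKM (SD), COL1A2 at 98.2 ± 21.2 and COL12A1 at 91.2 ± 13.7, which did not differ beyond their spread. COL1A1 (25.9 ± 10.6), COL4A5 (23.5 ± 2.25) and COL4A6 (18.8 ± 1.57) followed within the spread of COL1A1. With CPI-0209 the order was COL1A1 at 186 ± 111, COL7A1 at 89.2 ± 17.7, COL1A2 at 50.9 ± 12.2, COL3A1 at 31.5 ± 28.5 and COL12A1 at 30.6 ± 4.77 RPKM, and COL6A1 (15.1 ± 6.33) and COL16A1 (14.7 ± 3.20) entered the leading 8. The means of COL1A1 and COL7A1, and of COL3A1 and COL12A1, did not differ beyond their SDs. Within each CPI-0209 library, however, COL1A1 was above COL7A1 (983, 1436 and 3057 against 851, 1216 and 906 CPM, with the shorter exon length). The CPM summed over the 40 genes was 4273 ± 604.9 in vehicle and 4799 ± 1442 with CPI-0209, with overlapping libraries, and ranged from 3295 ± 300.9 (Valemetostat) to 4011 ± 177.5 (tazemetostat) with the other compounds. The order of the collagens by level thus differed between these groups while their sums overlapped.

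The 6 compounds were given at the same dose and harvested at the same time, so they were also compared directly. Of the 38 tested genes, 29 differed among the 6 compounds in the overall edgeR test, where 32.3% of all genes did. CPI-0209 was set against each of the other 5. Between CPI-0209 and tazemetostat, 20 collagen genes were higher and 9 lower (20.3% and 16.7% of all genes, 37.0% in either direction). Between CPI-0209 and CPI-1205 the counts were 23 and 6 (19.9% and 15.3% of all genes, 35.2% in either direction), and against PF-06821497 18 and 6 (13.9% and 8.66% of all genes, 22.6% in either direction). Tazemetostat and CPI-1205 thus stood apart from CPI-0209 in about as many collagen genes as vehicle did.

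Against MAK683, CPI-0209 had 10 rises and 4 falls among collagen genes, where 5.05% of all genes were higher, 4.03% lower and 9.08% called in either direction. The higher genes were led by COL4A2 (2.95), COL6A2 (1.96), COL22A1 (1.94), COL8A1 (1.75) and COL6A1 (1.66). The lower genes were COL18A1 (-1.38), COL5A3 (-0.87), COL4A4 (-0.84) and COL12A1 (-0.55). The total of 14 was 5 without CPI-0209 library 2 or MAK683 library 3, 6 without MAK683 library 2 and 8 without CPI-0209 library 3.

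Between CPI-0209 and Valemetostat no collagen gene was called by edgeR, where 0% of all genes were called. Of the 38, 16 had an unadjusted p under 0.05, the lowest adjusted p was 0.085, DESeq2 called 2, and edgeR called 6 without CPI-0209 library 1 and 3 without Valemetostat library 3. The shares of all genes for these counts are not given here, so the counts do not show whether collagen genes stood out. The 95% interval of the log2 difference (CPI-0209 minus Valemetostat, not adjusted for the number of genes) lay above 0 for 15 genes, below 0 for 1, and held 0 for 22. COL6A1 differed by 1.22 (0.36 to 2.08), COL6A2 by 1.84 (0.72 to 2.96), COL4A2 by 2.29 (1.02 to 3.56), COL3A1 by 2.12 (0.58 to 3.66) and COL16A1 by 0.55 (0.10 to 1.00). COL12A1 had an interval of -0.40 to 0.28 around -0.06, COL4A4 one of -0.55 to 0.27 around -0.14 and COL21A1 one of -1.36 to 0.06 around -0.65. For COL12A1 and COL4A4 the 2 compounds were within these bounds of each other, which does not show that they act alike.

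Muscle transcripts were followed in each library through MYH4, a myosin of fast skeletal muscle, and ACTA1, skeletal muscle actin, as markers of muscle tissue in the sample. MYH4 stood at 5.21, 0.0420 and 18.0 CPM with vehicle, 36.8, 8.45 and 243.5 with CPI-0209, 2.24, 9.33 and 18.5 with Valemetostat and 10.6, 0.147 and 26.6 with MAK683. It was at 20.4, 0.602 and 9.53 CPM with PF-06821497, 3.20, 14.2 and 2.55 with tazemetostat and 1.23, 3.88 and 0.179 with CPI-1205. CPI-0209 library 3 was the highest library of all and vehicle library 2 the lowest. ACTA1 stood at 13.9, 0.839 and 23.6 CPM with vehicle, 46.2, 19.8 and 386 with CPI-0209, 3.92, 14.8 and 27.0 with Valemetostat and 12.6, 0.978 and 40.6 with MAK683. It was at 31.8, 1.59 and 26.3 CPM with PF-06821497, 3.80, 28.8 and 5.65 with tazemetostat and 4.27, 7.14 and 0.940 with CPI-1205. Both were highest in CPI-0209 library 3, and they spread over more than 10-fold within vehicle, MAK683, PF-06821497 and CPI-0209. The mean log2 CPM of both genes, the muscle measure, was 5.78 (SD 2.30) with CPI-0209, 2.00 (SD 3.08) with vehicle and 0.93 (SD 1.69) to 3.22 (SD 1.47) in the other groups.

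Within groups, 5 of 38 collagen genes rose with the muscle measure and none fell, where 2.63% of all tested genes rose, 0.524% fell and 3.15% were called in either direction. The genes were COL1A1 (a slope of 0.25 ± 0.06 log2 units per log2 unit, adjusted p 0.0378), COL5A2 (0.24 ± 0.06, adjusted p 0.0458), COL4A5 (0.07 ± 0.02, adjusted p 0.0404), COL4A6 (0.06 ± 0.01, adjusted p 0.0367) and COL12A1 (0.06 ± 0.02, adjusted p 0.0475). COL3A1 (0.28 ± 0.07, adjusted p 0.0526) and COL4A1 (0.27 ± 0.08, adjusted p 0.0548) had slopes as large and were not called, while COL6A1 had 0.04 ± 0.07. The median slope of the members was 0.04, against 0.01 over all genes and 0.44 over the 10 skeletal muscle genes that do not enter the measure. Those 10 ran from -0.08 (MYH7) to 1.09 (MYH2). The count rests on single libraries: it was 0 without vehicle library 3, CPI-0209 library 2, Valemetostat library 3, MAK683 library 2, any tazemetostat library, PF-06821497 library 1 or 2, or CPI-1205 library 2 or 3. It was 1 without CPI-0209 library 3 or Valemetostat library 1, and 3 without MAK683 library 1.

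**Figure D4:**
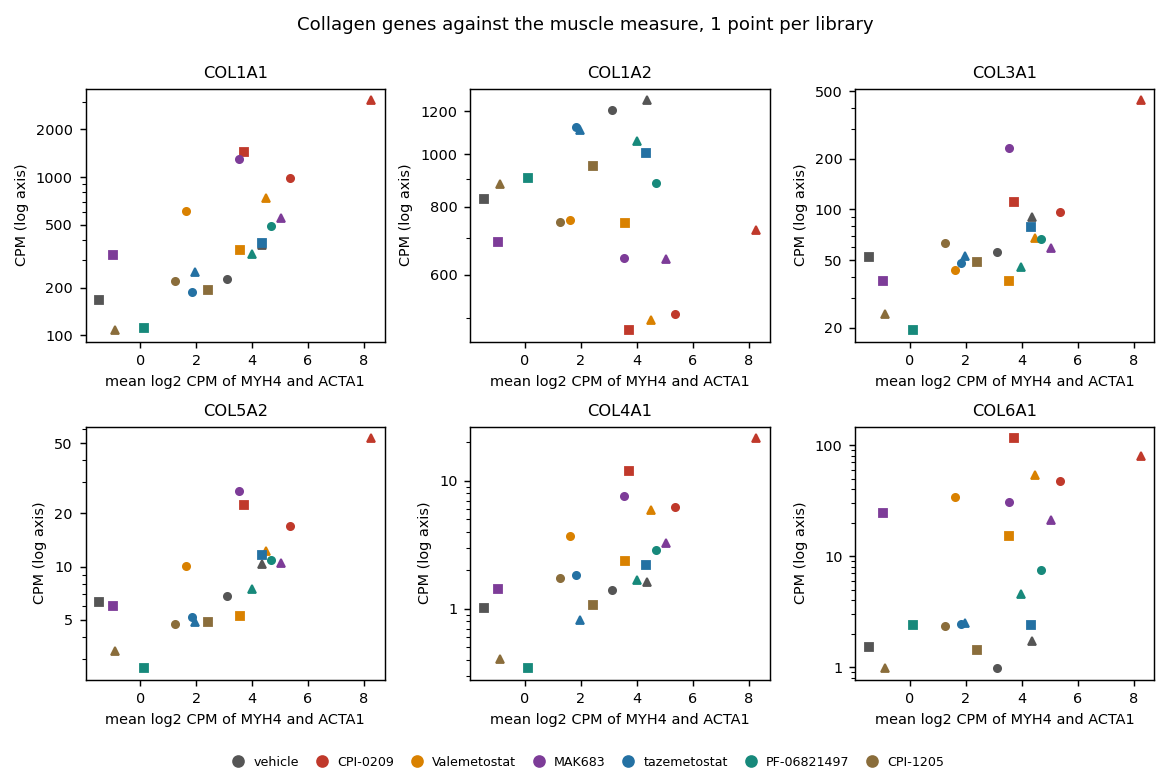
CPM per library (log axis) of COL1A1, COL1A2, COL3A1, COL5A2, COL4A1 and COL6A1 against the muscle measure (mean log2 CPM of MYH4 and ACTA1), where colour is the group and marker shape the library number. CPI-0209 library 3 is at the far right. The slope of COL1A1 is 0.25, that of COL3A1 0.28 (not called) and that of COL6A1 0.04, and MAK683 library 1 (1292 CPM of COL1A1) lies above MAK683 library 3 (549.6 CPM) at a lower measure.

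With the muscle measure as a covariate, CPI-0209 had 19 rises and 9 falls among collagen genes, beside 21.7% and 20.7% of all genes (42.4% in either direction). Valemetostat had 16 rises and 9 falls, beside 16.4% and 15.4% (31.8% in either direction). MAK683 had 14 and 7, beside 11.2% and 6.37% (17.6%), and PF-06821497 had 7 and 6, beside 7.06% and 5.47% (12.5%). Tazemetostat and CPI-1205 had 0 of 38 called by edgeR, beside 0% of all genes. Of the log2 fold changes with CPI-0209, COL6A1 went from 5.83 to 5.69, COL16A1 from 2.61 to 2.64, COL12A1 from -1.58 to -1.82 and COL18A1 from -2.34 to -2.24. COL1A1 went from 2.84 to 1.85, COL4A1 from 3.28 to 2.26, COL5A2 from 1.97 to 0.97 and COL3A1 from 1.71 to 0.37. The changes of COL6A1, COL16A1, COL12A1 and COL18A1 were thus about as large with this term, while those of COL1A1, COL4A1 and COL5A2 were smaller by about 1 log2 unit and COL5A2 was no longer called (adjusted p 0.121). Without CPI-0209 library 3, 27 collagen genes were called with CPI-0209, and 26 with the covariate as well. The shares of all genes in these refits are not given here.

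**Figure D5:**
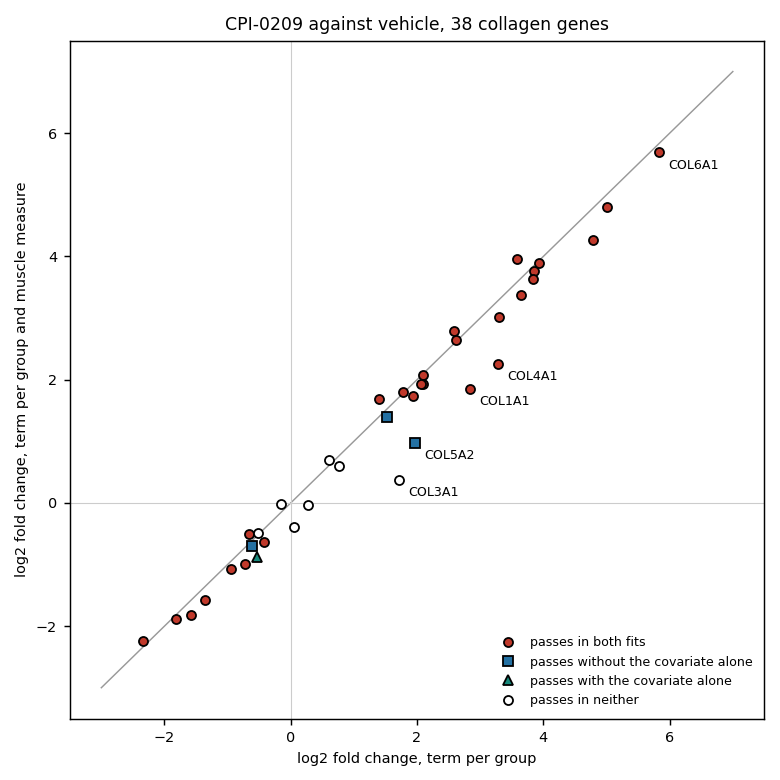
Log2 fold change with CPI-0209 against vehicle of the 38 tested collagen genes without (x axis) and with (y axis) the muscle measure as a covariate, where each point is 1 gene, its marker shows in which of the fits it was called, and the line marks equal values. COL6A1 stays near the line (5.83 and 5.69), and COL1A1 (2.84 and 1.85), COL4A1 (3.28 and 2.26), COL5A2 (1.97 and 0.97) and COL3A1 (1.71 and 0.37) fall below it.

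Genes that process collagen moved in both directions. Of 31 tested genes for procollagen folding, hydroxylation, trimming and cross-linking, 11 were higher and 9 lower with CPI-0209 (median 0.00), beside 22.3% and 18.8% of all genes. The counts were 8 and 6 with Valemetostat (15.0% and 12.2% of all genes), 6 and 5 with MAK683 (10.4% and 5.17%), and 3 and 5 with PF-06821497 (5.96% and 3.59%). P3H3, a prolyl hydroxylase family member, rose by 3.78 ± 0.27 and the cross-linking enzyme gene LOX by 2.31 ± 0.34 with CPI-0209. P4HA1, a chain of the main prolyl hydroxylase, fell (-1.62 ± 0.19), as did the lysyl hydroxylase gene PLOD2 (-1.19 ± 0.15). Of 11 collagen receptor genes, 5 rose and 3 fell with CPI-0209 (median -0.13), beside 22.3% and 18.8% of all genes. The rises included the inhibitory receptor gene LAIR1 (5.48 ± 0.58), the receptor kinase gene DDR2 (1.53 ± 0.29), the integrin gene ITGA10 (1.50 ± 0.42) and the uptake receptor gene MRC2 (1.16 ± 0.20). The falls, named after their values were seen, were the more abundant ADGRG1, an adhesion receptor gene, from 409 ± 9.69 to 245 ± 54.8 CPM (SD; -0.74 ± 0.20), the integrin gene ITGB1, from 614 ± 54.5 to 414 ± 49.8 CPM (-0.57 ± 0.16), and DDR1 (-0.32 ± 0.12). The receptor counts were 3 and 2 with Valemetostat, 3 and 0 with MAK683, and 0 and 0 with PF-06821497, to be read against the same shares of all genes.

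Matrix proteins that bind collagen had 8 higher and 4 lower of 16 tested with CPI-0209 (median 0.68), beside 22.3% and 18.8% of all genes. The counts were 2 and 4 with Valemetostat, where 27.3% of all genes were called in either direction, and 1 and 2 each with MAK683 (15.6%, near the share of the list) and PF-06821497 (9.55%). FN1, fibronectin, went from 2676 ± 631 CPM (SD) in vehicle to 592 ± 67.2 with CPI-0209 (-2.17 ± 0.36), and MATN2 fell too (-2.20 ± 0.23), while THBS1 (1.93 ± 0.30) and COMP (3.44 ± 0.75), both thrombospondin family genes, rose. None of these 3 lists had a gene called with tazemetostat or CPI-1205, where 0% of all genes were called.

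Markers of cell types that can make collagen are given beside these results, and their counts with CPI-0209 are to be read against the 22.3% of all genes that were higher and the 18.8% that were lower (41.1% in either direction). Of 13 tested fibroblast markers, 7 were higher and 4 lower with CPI-0209 (median 1.43), with THY1 at 6.17 ± 0.47, PDPN at 4.57 ± 0.42, PDGFRA at 2.85 ± 0.35 and FBN1 at -2.07 ± 0.20, and their summed level was 799.7 to 919.0 CPM against 1257 to 1368 in vehicle. Of 11 endothelial and pericyte markers, 5 were higher and 4 lower (median 1.56), with PECAM1 at 3.78 ± 0.25, CLDN5 at 4.28 ± 0.48, TIE1 at 1.82 ± 0.35 and NOTCH3 at -0.95 ± 0.15, and the endothelial genes VWF (-1.19 ± 0.29) and CDH5 (-1.26 ± 0.36), named after their values were seen, fell as well. That list had a sum of 230.2 to 243.3 CPM against 348.4 to 428.5. Both lists thus held called genes in both directions, and their sums, which abundant members dominate, were lower.

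Skeletal muscle markers had 4 higher and 1 lower of 12 (median 3.44), among them TTN (3.43 ± 0.91), ATP2A1 (2.73 ± 0.74), CKM (4.02 ± 1.34) and TNNT3 (-1.02 ± 0.15), with sums of 440.6 to 1932 CPM against 613.2 to 666.0 in vehicle, and 5 called of 12 is near the 41.1% of all genes. The most abundant of this list in vehicle, TNNT3 (mean 413.9 CPM) and TNNI2 (139.4 CPM), did not follow the muscle measure (slopes of -0.04 and -0.05), so the sums say little about muscle tissue. Smooth muscle markers had 4 of 7 higher (median 2.06), beside 22.3% of all genes, with ACTA2 at 2.12 ± 0.30, ACTG2 at 2.09 ± 0.49, CNN1 at 1.39 ± 0.51 and LMOD1 at 2.06 ± 0.81, and sums of 49.5 to 218.5 CPM against 20.6 to 27.1. DES, a muscle gene of that list with a slope of 0.89 on the muscle measure, made up 160.5 CPM of the sum of 218.5 in CPI-0209 library 3. Macrophage markers had 4 of 6 higher (median 1.44), beside the same 22.3%, with ADGRE1 at 3.16 ± 0.29, PTPRC at 2.92 ± 0.55, LAPTM5 at 1.77 ± 0.18 and CD68 at 1.11 ± 0.27, and sums of 98.3 to 126.8 CPM against 39.7 to 54.7. Of 5 tested chondrocyte and bone markers, HAPLN1 fell (-3.10 ± 0.35) and MATN3 rose (1.84 ± 0.33), and both tested adipocyte markers, FABP4 (3.37 ± 0.33) and LPL (2.62 ± 0.35), rose. The other adipocyte markers, ADIPOQ, LEP, PLIN1 and CIDEC, were too low to test. They had 1, 75, 81 and 23 counts over all libraries, so the rises stand for only part of that list.

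Urothelial carcinoma markers, which stand for the HT1376 cells, had 1 higher and 4 lower of 12 (median -0.24), with EPCAM at 0.65 ± 0.14, KRT5 at -1.21 ± 0.23, TP63 at -0.92 ± 0.18 and GATA3 at -0.50 ± 0.16, and 5 called of 12 is near the 41.1% of all genes. Their sum was 10460 to 12210 CPM with CPI-0209 and 14070 to 14890 in vehicle, so the labelled epithelial cell type was present in all of these libraries. No listed marker was at 0 in every library, TYROBP of the macrophage list, SP7 and ADIPOQ were at 0 in all vehicle libraries, and besides TYROBP 9 markers were too low to test (DPT, PVALB, ACAN, IBSP, SP7, ADIPOQ, LEP, PLIN1 and CIDEC). With Valemetostat and MAK683 the counts were 4 and 2, and 4 and 3, for fibroblast markers, 4 and 3, and 3 and 1, for endothelial markers, and 0 and 1 each for skeletal muscle markers, where 27.3% and 15.6% of all genes were called in either direction. The part of these cell types in the collagen changes was not tested.

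Upstream windows of RefSeq (250 bases before to 50 after a gene's start, GRCh38.p14) were matched for 29 of the 40 members. For a member with several windows, only the window nearest its annotated start was used. These windows held a median of 24 CpG, against 14 over 35116 windows of all genes. The latter include alternative starts of a gene, so the CpG medians and motif shares of members and of all windows are not like for like. By call with CPI-0209, the median was 25 for 14 higher members, 20.5 for 8 lower members and 26.5 for 6 not called. GGGCGG was found on either strand in 17 of the 29 (58.6%, against 45% of all windows), and CCAAT in 8 (27.6%, against 34.6%). The windows of higher and lower members thus overlapped in CpG content. No window was matched for COL1A1, COL1A2, COL2A1, COL3A1, COL5A2, COL6A1, COL8A1, COL9A3, COL14A1, COL20A1 and COL22A1.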

How the data were processed

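The values are raw read counts per gene, as deposited by the authors, for 21 libraries in 7 groups taken from the treatment in the labels. Per the submitters' processing notes, the tools were STAR 2.7.3a and RSEM 1.3.1, and the build hg38. Per the labels' protocols, snap-frozen tumours were extracted with Trizol, prepared with a TruSeq RNA v2 kit, which the labels also call strand specific, and read as paired 150 bp reads on a HiSeq 4000. Which program counted the reads, with which strand setting and annotation, and whether mouse reads were removed is not given in the sources used here, so reads of antisense neighbours or mouse orthologs may be included. The 3 PF-06821497 libraries are numbered by their titles, whose numbers differ from those of the count columns.

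After filterByExpr (by group), 21958 genes with 99.6% to 99.9% of counts were left and scaled by TMM (factors 0.946 to 1.08). A single model of the 21 libraries, with the 7 groups as its terms, was fitted with edgeR 4.0.16 in R 4.3.3 (quasi-likelihood, robust, common BCV 0.163, 14 residual degrees of freedom). Tests were two-sided and adjusted by Benjamini-Hochberg, with a threshold of 0.05. The SE is the log2 fold change divided by the square root of F. The 95% intervals use that SE and the residual degrees of freedom. RPKM uses the exon length in the files. The muscle measure averages the log2 CPM of MYH4 and ACTA1 (prior count 2). No duplicated library was found. The pipeline was tested on simulated data.

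Values in every library are given for members with a group mean of at least 5 CPM, or with calls in at least 3 compounds and a group mean of at least 1 CPM. In other lists, up to 4 called members with the smallest p over the 7 groups are named. COL9A1, COL9A3, COL11A1, COL22A1, COL23A1, ADGRG1, ITGB1, DDR1, VWF, CDH5 and DES were named outside this rule after their values were seen. The members and lists were chosen with earlier results of these data known, and MYLPF of the muscle list had no match. Alternatives were other low-count filters, RLE and upper-quartile scaling, DESeq2 1.42.0, voom of limma 3.58.1, a fit of the 2 groups alone, the replicate number as a block, the muscle covariate, MYH4 or ACTA1 alone, and libraries left out singly or by their resubmission mark. The mark in count columns, and the covariate without CPI-0209 library 3, were added after seeing the data.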

Additional observations from a re-analysis of the deposited data

How the results depend on the processing

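Against vehicle, the counts of called collagen genes with CPI-0209, Valemetostat and MAK683 stayed within 1.5 times the values in the report under every alternative run. Leaving out 1 library of the 2 groups gave 27 to 30 calls with CPI-0209, 20 to 23 with Valemetostat, 16 to 17 with MAK683 and 6 to 11 with PF-06821497. With CPI-1205 the count went from 0 to 5 with no filter on low counts and 1 with DESeq2. Leaving out the libraries marked as resubmitted, in either the title or the count column, leaves 1 CPI-1205 library. Its spread cannot be measured, so only effect sizes are given for that setting. They included -1.24 for COL7A1 and -1.37 for COL6A3. Having no filter made the adjusted p of several named genes much smaller at similar fold changes, so its counts are not on a par with the others. COL3A1 with CPI-0209, for 1, had 1.62, adjusted p 6.67e-26, against 1.71, adjusted p 0.0658 with the filter. Between CPI-0209 and Valemetostat the count went from 0 to 14 with no filter and 2 with DESeq2, and was 0 to 6 without 1 library. Without 1 library, the count between CPI-0209 and MAK683 was 5 to 14. It was 25 to 30 against tazemetostat, 16 to 23 against PF-06821497 and 26 to 30 against CPI-1205, and 27 to 32 genes differed among the 6 compounds. The count that changed with the muscle measure went from 5 to 1 with upper-quartile scaling and 2 with ACTA1 alone, and was 0 to 7 without 1 library. The cause of these differences was not tested. Apart from the muscle covariate, the shares of all genes called under the alternatives, the replicate block below included, are not given here. Their counts thus do not show whether collagen genes stood out.

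With the replicate number as a block, 29 collagen genes were called with CPI-0209, 24 with Valemetostat, 18 with MAK683, 10 with PF-06821497 and 0 with tazemetostat and CPI-1205. The numbers do not pair the samples: over 63 pairs of libraries with the same number the correlation of their deviations ran from -0.313 to 0.326 (median -0.0517), 15 were over 0.1, and 4 of 21 libraries were closest to their own number.

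For single named genes against vehicle, 2967 alternatives kept the direction and the side of the threshold, 96 lost a call, 67 gained one and no called value changed its sign. Another 97 changed the sign of a value that was called in neither fit, among them COL3A1 with MAK683 (0.73, and -0.44 without MAK683 library 1) and COL4A1 with PF-06821497 (0.25, and -0.40 without PF-06821497 library 1). Members with few counts in vehicle have the widest errors, and the species of the reads and the strand setting limit what the counts of any collagen gene stand for.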
